A study of Columba livia with 6 samples.

Results

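The phagosome is the compartment in which a cell digests what it has engulfed. In the deposited gene table of pigeon (Columba livia) ovaries, 150 of 34346 loci were assigned to the phagosome pathway of KEGG. Of these, 32 were also assigned to the lysosome pathway or to the extracellular matrix receptor pathway and were set aside, and ATP6V1B1 was left out. The remaining 117 loci are described here. They were chosen by pathway assignment, with earlier results of these data known.

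A phagosome forms when receptors and opsonins, the proteins that coat a target, bind a particle and actin pulls the membrane around it. Rab and SNARE proteins then fuse the new compartment with endosomes while it travels along tubulin tracks, the proton pump acidifies it, and oxidases fill it with reactive oxygen. Peptides from the digested target are loaded onto major histocompatibility complex (MHC) molecules for display to T cells. In the ovary, macrophages and granulosa cells take up the remains of follicles that degenerate.

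The series compared the ovaries of 3 pigeons that laid many eggs (high production, HP, here HP1, HP2 and HP3) with those of 3 that laid few (low production, LP, here LP4, LP5 and LP6), numbered as in the sample titles. All 6 birds were 2 years old and sexually mature, received no treatment, and shared 1 flock, hatching batch and genetic background according to the methods. Each library was made from the ovary of 1 bird after removal of ribosomal RNA. The birds were picked from the extremes of egg laying in that flock, so the groups differ in a trait and not in an applied factor, and whole ovaries mix many cell types.

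The libraries held between 97875183 and 108669967 counts. HP was compared with LP by edgeR's quasi-likelihood test on the 28274 loci whose FPKM averaged 0.1 or more, and p-values were adjusted by the Benjamini-Hochberg method over all of them. Values by ovary are CPM, the count of a locus scaled to its library's total after TMM normalisation, and fold changes are HP over LP. A level in bulk tissue cannot separate fewer cells of a type from less RNA per cell. Marker genes of leukocytes and macrophages summed to 846 to 1267 CPM in HP ovaries and 952 to 1242 CPM in LP ovaries. Of their 6 loci, 0 had an unadjusted p under 0.05 in edgeR, against 8.24% of all tested loci. So few loci cannot show whether leukocyte content was alike. CD74, also listed below as an antigen presentation gene, made up most of each sum, and PTPRC was counted in a locus joined with NEK7.

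Among the 117 phagosome loci, 103 were tested, and 9 had an unadjusted p under 0.05, against 8.24% of all tested loci. These 9 loci were 8.74% of the tested phagosome loci, which is near the background share. Only 1 of the 9 was higher in HP ovaries (background 4.74%), and 8 were lower (background 3.5%). The 8 were an immunoglobulin heavy chain locus, MRC2, TUBAL3, TUBB3, a myeloperoxidase locus, an MHC class II beta locus, RAB7B and SCARA5, and the higher one was WDFY1. A difference of at least 2-fold in mean FPKM was also present in 4 of the 9, all lower in HP ovaries, against 3.11% of all tested loci in either direction, 2.09% on the higher side and 1.02% on the lower. None of the 103 passed the adjusted threshold of edgeR, under which 3 loci passed in the whole table (0.0106%), and the lowest adjusted p among phagosome loci was 0.253. The limma fits also called 0 of them, with 6 and 7 loci called in the whole table. DESeq2 called 2 of them and 407 loci in the whole table (1.44%).

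Receptors, MHC loci and oxidases were centred below 0, while the proton pump and the Rab and SNARE loci were centred just above it. The median log2 fold change was -0.36 over 10 tested loci of the MHC and antigen-loading class, -0.19 over 23 receptors and opsonins, -0.15 over 9 oxidase loci and -0.05 over 15 tubulins. It was -0.07 over 12 actin and dynein loci, 0.03 over 21 trafficking loci and 0.07 over 13 proton pump loci. Over all 103 it was -0.03, and over all tested loci -0.01. Of the 103, 47 lay above 0 (45.6%), against 49.0% of all tested loci. The MHC, receptor and oxidase medians stayed below 0 when any 1 ovary was left out. The tubulin median was 0.06 without HP1 and 0.11 without LP6, and that of actin and dynein 0.05 without LP4. That of trafficking was -0.05 without HP3 and -0.02 without LP5, and that of the proton pump 0.0 without LP5. In the 31 tested loci of the same pathway that were set aside, an unadjusted p under 0.05 was reached by 0 loci higher in HP (background 4.74%) and by 4 lower in HP (12.9%, background 3.5%), with a median of -0.03.

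**Figure D1:**
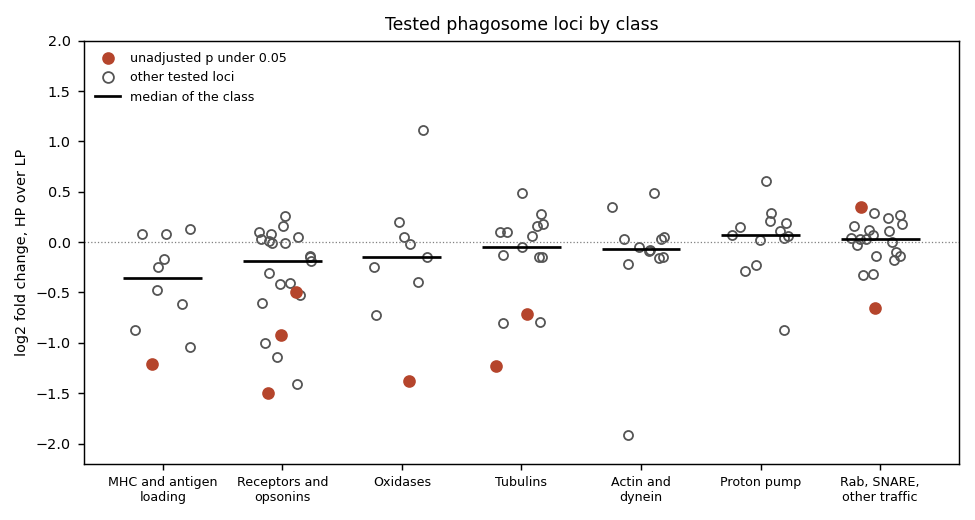
Log2 fold change (HP over LP) of the 103 tested phagosome loci by functional class. Each circle is 1 locus, filled where the unadjusted p was under 0.05, and the bar is the class median, lowest for MHC (-0.36) and highest for the proton pump (0.07).

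The HP ovaries were not alike in these classes. HP2 held the lowest value of the 6 ovaries at 14 of the 23 tested receptors and opsonins and at 6 of the 10 MHC and antigen-loading loci. By comparison, HP2 was lowest at 32 of the 103 tested phagosome loci and at 4937 of all 28274 tested loci. Its median deviation from the mean of the 6 ovaries was -0.41 on the log2 scale over receptors, -0.33 over MHC loci and -0.35 over oxidases, whereas HP1 stood at 0.13, 0.18 and 0.10 in those classes. LP4 had the highest median deviation of the 6 ovaries in the MHC class (0.48). Without HP2 the number of loci with an unadjusted p under 0.05 was 6, against 5.2% of all loci then tested, and without HP1 it was 15, against 9.12%.

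Immunoglobulin heavy chains are counted in the pathway because antibodies coat targets for uptake. LOC110365048 (joined in the file with LOC106145644 and LOC102090969) lies on scaffold NW_004973665.1 of Cliv_1.0 from base 46977 to 74762 on the plus strand. Its deposited descriptions name a heavy chain variable region and the alpha constant region, the part that makes an antibody IgA. The counts of this joined locus do not separate the regions, so they cannot be assigned to IgA alone. It had 86.7, 104 and 122 CPM in HP1, HP2 and HP3, against 286, 355 and 242 CPM in LP4, LP5 and LP6. Every LP ovary was above every HP ovary by a wide gap. The mean was 104 ± 17.4 CPM in HP ovaries and 294 ± 57.1 CPM in LP ovaries (SD, n = 3 each). Its log2 fold change was -1.50 (SE 0.19), with an unadjusted p of 0.000125 in the edgeR fit and an adjusted p of 0.253. Without any 1 of the 6 ovaries the log2 fold change stayed between -1.63 and -1.34, and DESeq2 gave an adjusted p of 1.67e-08.

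The neighbouring constant-region loci on the same scaffold were also lower in mean level in HP ovaries, with more spread. LOC102091146, described as an Ig mu chain (the heavy chain of IgM) at bases 80450 to 83795, had 5.81, 2.08 and 5.93 CPM in HP1, HP2 and HP3, against 11.8, 8.80 and 7.13 CPM in LP4, LP5 and LP6. The groups did not overlap, and the log2 fold change was -1.01 with an unadjusted p of 0.0538 in edgeR. LOC102091325 spans bases 86862 to 97618 and is joined with LOC110365049, and their counts are not separated. It is described as a heavy chain constant region of IgY, the main serum antibody of birds. It had 124, 94.3 and 241 CPM in HP1, HP2 and HP3, against 135, 843 and 238 CPM in LP4, LP5 and LP6. Only LP5 stood apart at the IgY locus, and the groups overlapped. Its log2 fold change was -1.41 (unadjusted p of 0.0898 in edgeR) and -0.29 without LP5, and it was -1.82 without LP4 (unadjusted p of 0.0286 in edgeR).

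JCHAIN, the joining chain that links IgA and IgM molecules in plasma cells, is not in the pathway. It had 65.0, 67.7 and 162 CPM in HP1, HP2 and HP3, against 143, 332 and 154 CPM in LP4, LP5 and LP6, with a log2 fold change of -1.10 and an unadjusted p of 0.0569 in edgeR. HP3 lay within the LP values. POU2AF1, a transcriptional coactivator of B cells, had 31.8, 29.0 and 53.4 CPM in HP1, HP2 and HP3, against 15.9, 36.4 and 32.5 CPM in LP4, LP5 and LP6. The 4 B cell markers together summed to 97.4 to 216 CPM in HP ovaries and 159 to 370 CPM in LP ovaries. JCHAIN made up most of each sum. Of 3 tested loci, 0 had an unadjusted p under 0.05 in edgeR, against 8.24% of all tested loci. JCHAIN was below 0, while POU2AF1 (log2 fold change 0.43) and CD79B (0.01) were above. CD79B reached at most 0.93 CPM, and PAX5, at most 0.14 CPM, was not tested. The part of these markers in the heavy chain values was not tested.

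**Figure D2:**
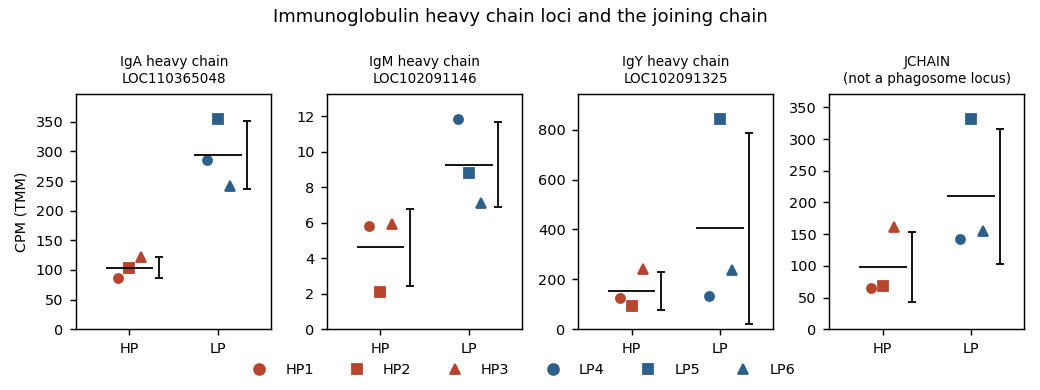
CPM of 3 immunoglobulin heavy chain loci and of JCHAIN in each ovary, with the group mean (bar) and SD (whisker), n = 3 each. The IgM locus and LOC110365048, labelled IgA although it also holds a variable region, had no overlap between groups. The high LP mean at the IgY locus, which is joined with LOC110365049, came from LP5 at 843 CPM.

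The other 6 heavy chain loci were low or alike between the groups. LOC110362898, with 21.5, 28.5 and 26.5 CPM in HP1, HP2 and HP3 against 20.9, 22.9 and 28.7 CPM in LP4, LP5 and LP6, had a log2 fold change of 0.08. LOC102090235 stayed under 2 CPM in all 6 ovaries and was highest in LP5 (1.88 CPM), with a log2 fold change of -1.14, and 4 further loci were not tested. Variable-region copies resemble each other, so the division of reads among these loci is uncertain.

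Among receptors that bind targets directly, MRC2, a mannose receptor family member that takes up collagen, was lower in all HP ovaries than in all LP ovaries. It had 190, 149 and 152 CPM in HP1, HP2 and HP3, against 236, 231 and 226 CPM in LP4, LP5 and LP6. The 3 LP ovaries lay close together, with an SD of 4.93 CPM against 23.2 CPM in HP ovaries. Its log2 fold change was -0.50 (SE 0.12), with an unadjusted p of 0.0054 and an adjusted p of 0.560 in edgeR. MRC2 lies on scaffold NW_004973939.1 from base 234200 to 262097 on the plus strand and overlaps LOC110355440 on the minus strand, which had a log2 fold change of -0.42 (unadjusted p of 0.0102 in edgeR). Whether the counting used strand is not given in the sources used here, so reads of the overlap cannot be assigned to one locus.

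The macrophage mannose receptor, which recognises sugars on microbes, was represented by neighbouring loci. LOC102086979 had 35.0, 24.6 and 35.5 CPM in HP1, HP2 and HP3, against 47.4, 45.3 and 33.9 CPM in LP4, LP5 and LP6, and LOC102087168 had 98.4, 68.7 and 74.1 CPM in HP1, HP2 and HP3, against 72.1, 90.5 and 73.1 CPM in LP4, LP5 and LP6. Neither separated the groups, and the log2 fold changes were -0.41 and 0.03. Without LP6 that of LOC102086979 was -0.55 (unadjusted p of 0.0351 in edgeR). PLA2R1, a receptor for secreted phospholipases, and FREM1, a matrix protein filed under the same KEGG entry, had log2 fold changes of 0.05 and 0.11. HP2 was the lowest ovary at all 5 tested loci of the mannose receptor family, MRC2 included, and at 4937 of all 28274 tested loci.

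SCARA5, a scavenger receptor that binds ferritin, had 11.4, 8.78 and 7.88 CPM in HP1, HP2 and HP3, against 14.4, 28.1 and 10.6 CPM in LP4, LP5 and LP6. HP1 was above LP6, and LP5 was far above all others. SCARA5 had a log2 fold change of -0.92 (SE 0.38), with an unadjusted p of 0.0465 and an adjusted p of 0.597 in edgeR. Leaving out LP5 gave -0.42 and an unadjusted p of 0.156 in edgeR, and leaving out any other ovary but LP6 also gave a p above 0.05. Other scavenger receptors showed no such gap. MARCO, a macrophage receptor for bacteria, had 41.8, 16.0 and 26.0 CPM in HP1, HP2 and HP3, against 33.6, 16.8 and 19.9 CPM in LP4, LP5 and LP6. SCARB1, which takes up cholesterol from high-density lipoprotein for steroid synthesis, had 92.2, 113 and 112 CPM in HP1, HP2 and HP3, against 108, 100 and 142 CPM in LP4, LP5 and LP6. The log2 fold changes of MARCO, SCARB1 and COLEC12, a collectin-type scavenger receptor, were 0.25, -0.14 and -0.19. Without HP1 MARCO was at -0.15 and COLEC12 at -0.47 (unadjusted p of 0.0281 in edgeR), and SCARB1 was at 0.03 without LP6.

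Pattern receptors and complement gave no separation of the groups. TLR2, a sensor of bacterial lipoproteins, had 4.46, 3.27 and 2.84 CPM in HP1, HP2 and HP3, against 8.00, 1.93 and 6.10 CPM in LP4, LP5 and LP6. LP5 was the lowest of all 6 ovaries at the locus named TLR2 and LP4 the highest. LOC102090616, also described as toll-like receptor 2, was lowest in HP2 (4.02 CPM) and highest in LP6 (7.48 CPM). Its log2 fold change was -0.15 (unadjusted p of 0.603 in edgeR). TMEM131L, joined with LOC102084454 and filed under the same KEGG entry, was at 0.01. TLR4, the sensor of lipopolysaccharide, had 41.3, 69.7 and 52.0 CPM in HP1, HP2 and HP3, against 47.2, 59.5 and 39.4 CPM in LP4, LP5 and LP6, and its coreceptor CD14 had 3.71, 2.22 and 2.39 CPM in HP1, HP2 and HP3, against 3.94, 3.17 and 3.93 CPM in LP4, LP5 and LP6. C3, the central opsonin of complement, had 225, 139 and 176 CPM in HP1, HP2 and HP3, against 184, 149 and 211 CPM in LP4, LP5 and LP6. The log2 fold changes were -0.60 for TLR2, 0.16 for TLR4, -0.41 for CD14 and -0.01 for C3, with unadjusted p-values from 0.182 to 0.953 in edgeR. Single ovaries set these values. TLR2 was at -1.001 without LP5 (unadjusted p of 0.0158 in edgeR) and -0.19 without LP4, CD14 at -0.67 without HP1 (unadjusted p of 0.0387 in edgeR), TLR4 at -0.06 without HP2, and C3 at -0.20 without HP1 and 0.14 without HP2.

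MHC class II molecules present peptides from engulfed material, and birds name some of their beta chains B-L. All 5 tested class II loci were below 0 (log2 fold changes from -1.21 to -0.24, median -0.87), and all 5 were highest in LP4 and lowest in HP2 or HP3. Among all 28274 tested loci, LP4 was highest at 4661, HP2 lowest at 4937 and HP3 lowest at 5070. The class II median is the value of LOC106145944, a locus near the floor with 6 counts in HP2 and 38 in LP4, its lowest and highest ovaries. It reached at most 0.39 CPM, and its unadjusted p was 0.303 in edgeR. LOC102098807, a class II beta chain on scaffold NW_004974763.1 from base 19402 to 20284, had 16.5, 5.15 and 9.54 CPM in HP1, HP2 and HP3, against 29.8, 24.6 and 17.8 CPM in LP4, LP5 and LP6. The groups did not overlap, although HP1 came close to LP6. Its log2 fold change was -1.21 (SE 0.43), with an unadjusted p of 0.0271 and an adjusted p of 0.585 in edgeR. The unadjusted p was 0.0753 without HP3, 0.0801 without LP4 and 0.058 without LP5, with log2 fold changes between -1.20 and -1.03.

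Both B-L beta loci had smaller differences. LOC102093420 had 53.1, 32.7 and 23.4 CPM in HP1, HP2 and HP3, against 74.2, 44.0 and 48.6 CPM in LP4, LP5 and LP6, a log2 fold change of -0.61. LOC102091594 had 51.8, 33.2 and 34.2 CPM in HP1, HP2 and HP3, against 55.7, 38.3 and 47.0 CPM in LP4, LP5 and LP6, a log2 fold change of -0.24. HP1 lay above LP5 at both loci. Without HP1 the log2 fold changes were -0.99 for LOC102093420 (unadjusted p of 0.0165 in edgeR) and -0.48 for LOC102091594 (unadjusted p of 0.0489 in edgeR), and without LP4 they were -0.35 and -0.10. LOC102098631, described as a DR alpha chain, varied most, with 42.2, 4.74 and 11.2 CPM in HP1, HP2 and HP3 against 74.0, 37.2 and 8.74 CPM in LP4, LP5 and LP6. Summed, the class II loci came to 164, 75.9 and 78.4 CPM in HP1, HP2 and HP3, against 234, 144 and 122 CPM in LP4, LP5 and LP6, and HP1 again lay within the LP range. Copies of an MHC chain can be alike in sequence, which was not compared here, so single loci may share reads.

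LOC102084942 is described as a class I F10 alpha chain, which presents peptides made inside the cell, although its KEGG entry is that of a peptide transporter. It had 235, 196 and 149 CPM in HP1, HP2 and HP3, against 334, 238 and 235 CPM in LP4, LP5 and LP6, with a log2 fold change of -0.48 (unadjusted p of 0.0642 in edgeR). HP1 matched LP6, and the other HP ovaries were below all LP ovaries. The log2 fold change was -0.64 without HP1 (unadjusted p of 0.031 in edgeR) and -0.29 without LP4. CANX, the chaperone calnexin that folds class I chains, had 343, 371 and 376 CPM in HP1, HP2 and HP3, against 411, 308 and 313 CPM in LP4, LP5 and LP6. SEC61A2, SEC61B and SEC61G, subunits of the channel through which proteins cross the endoplasmic reticulum membrane, had log2 fold changes of 0.08, 0.13 and -0.17.

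Antigen presentation genes outside the pathway were all on the same side. Of 11 symbols listed, 7 were found as 8 loci, and all 8 had log2 fold changes below 0 (median -0.17). Across all tested loci, 49.0% lay above 0. All 8 antigen presentation loci were highest in LP4, which was highest at 4661 of all 28274 tested loci. How far their shared sign rests on that ovary was not tested. RFX5 was counted at more than 1 locus. Of the 8, the groups overlapped at all but 1, which also had an unadjusted p under 0.05 in edgeR. Among all tested loci, 14.6% had no overlap and 8.24% had such a p, so 1 locus does not set the list apart. That gene, NLRC5, a transactivator of class I genes in mammals, had 14.7, 18.2 and 15.2 CPM in HP1, HP2 and HP3, against 29.4, 22.0 and 20.9 CPM in LP4, LP5 and LP6 (log2 fold change -0.59, unadjusted p of 0.0179 in edgeR). CD74, the invariant chain of class II, had 707, 521 and 474 CPM in HP1, HP2 and HP3, against 799, 585 and 720 CPM in LP4, LP5 and LP6. HP1 was within the LP range for CD74, as it was for the class II chains. CD74 also belongs to the leukocyte and macrophage markers, so those 2 lists are not independent.

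**Figure D3:**
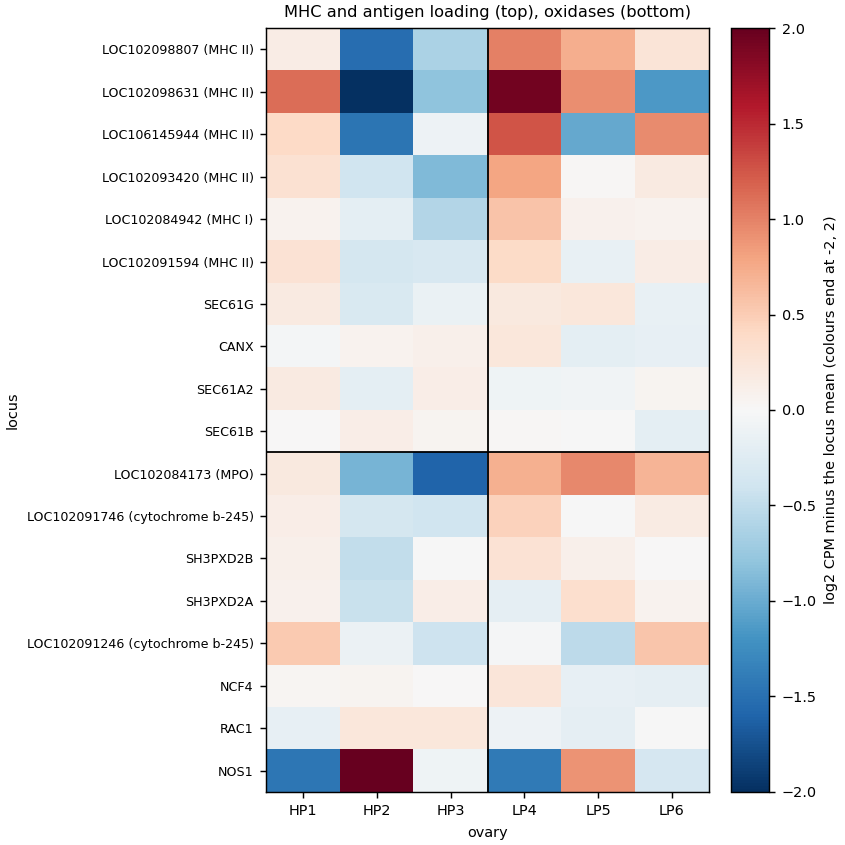
Log2 CPM of 10 tested MHC and antigen-loading loci and 8 tested oxidase loci minus the mean of each locus over the 6 ovaries, with HP ovaries left of LP ovaries and loci ordered by fold change within each class. LP4 is red at all 5 class II loci, and myeloperoxidase (MPO) is below its mean in HP2 and HP3 only.

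Oxidases make the reactive oxygen that attacks phagosome contents. Myeloperoxidase, a granule enzyme that makes hypochlorous acid in mammalian neutrophils, was annotated at 3 loci on 1 scaffold. LOC102084173 (NW_004973452.1, bases 133959 to 154940, plus strand) had 12.6, 5.76 and 3.65 CPM in HP1, HP2 and HP3, against 17.9, 21.5 and 17.6 CPM in LP4, LP5 and LP6. The LP ovaries lay close together above all HP ovaries, among which HP1 was highest. This locus had a log2 fold change of -1.38 (SE 0.44), with an unadjusted p of 0.0181 and an adjusted p of 0.584 in edgeR. Leaving out HP2 gave -1.23 and an unadjusted p of 0.0581 in edgeR. Both other myeloperoxidase loci also had lower values in HP ovaries, but they lay under the expression filter and were not tested. LOC102084361 had 0.336, 0.0993 and 0.124 CPM in HP1, HP2 and HP3, against 0.547, 0.404 and 0.513 CPM in LP4, LP5 and LP6. LOC110362831, inside the span of LOC102084173, was counted 0, 0 and 4 times in HP1, HP2 and HP3, against 9, 11 and 7 times in LP4, LP5 and LP6. LOC102084173 also overlaps TSPOAP1 on the minus strand, whose log2 fold change was -0.33 (unadjusted p of 0.455 in edgeR). Granulocyte and mast cell markers summed to 92.0 to 99.7 CPM in HP ovaries and 89.6 to 108 CPM in LP ovaries. Of 4 tested loci, 0 had an unadjusted p under 0.05 in edgeR, against 8.24% of all tested loci. Most of each sum (46.3 to 65.1 CPM) came from a locus that joins CSF3R with another gene, MRPS15, and the listed CEBPE was not found. These sums therefore cannot show whether granulocyte content was alike, which was not tested.

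The phagocyte NADPH oxidase, which makes superoxide, showed no shared direction. Its membrane heavy chain LOC102091246 had 98.2, 62.5 and 50.8 CPM in HP1, HP2 and HP3, against 67.1, 47.4 and 99.7 CPM in LP4, LP5 and LP6, a log2 fold change of -0.02. The light chain LOC102091746 had 41.1, 29.5 and 28.6 CPM in HP1, HP2 and HP3, against 51.5, 37.4 and 42.0 CPM in LP4, LP5 and LP6, a log2 fold change of -0.40 (unadjusted p of 0.0824 in edgeR). HP1 lay between LP5 and LP6 there, and without HP1 the log2 fold change was -0.58 (unadjusted p of 0.0189 in edgeR). The heavy chain was at -0.33 without HP1 and 0.30 without LP6. The cytosolic subunit NCF4, which binds phosphoinositide on the phagosome, stayed between 2.46 and 3.28 CPM in all 6. RAC1, the GTPase that switches the complex on, had a log2 fold change of 0.20 (0.32 without HP1, unadjusted p of 0.0275 in edgeR), and SH3PXD2A and SH3PXD2B, organizer relatives found in podosomes, had -0.15 and -0.25.

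NOS1, a nitric oxide synthase best known from neurons, had 1.48, 21.0 and 3.82 CPM in HP1, HP2 and HP3, against 1.52, 7.48 and 3.18 CPM in LP4, LP5 and LP6. HP2 alone was high. The log2 fold change of 1.11 became -0.62 without HP2, and its unadjusted p was 0.312 in edgeR.

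Tubulins form the microtubules along which phagosomes move. Of 17 loci, 15 were tested, and 7 had log2 fold changes above 0 and 8 below. An unadjusted p under 0.05 in edgeR was reached by 2 (13.3%, against 8.24% of all tested loci). So few loci do not set the class apart from the background. TUBAL3, an alpha-tubulin-like gene on scaffold NW_004973320.1 (bases 789672 to 796941), had 52.4, 44.4 and 30.0 CPM in HP1, HP2 and HP3, against 142, 73.7 and 81.7 CPM in LP4, LP5 and LP6. All HP ovaries were below all LP ovaries, and LP4 was the highest. The log2 fold change was -1.23 (SE 0.31), with an unadjusted p of 0.00617 and an adjusted p of 0.562 in edgeR. It stayed between -1.41 and -0.88 without any 1 ovary, and DESeq2 gave an adjusted p of 0.0156.

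TUBB3, the beta-tubulin that marks neurons, had 9.50, 11.1 and 14.9 CPM in HP1, HP2 and HP3, against 18.3, 23.1 and 17.0 CPM in LP4, LP5 and LP6. The groups did not overlap, and HP3 and LP6 were nearest to each other. TUBB3 had a log2 fold change of -0.72 (SE 0.23), with an unadjusted p of 0.0167 and an adjusted p of 0.584 in edgeR. The unadjusted p was 0.0525 without HP1, 0.0522 without HP2 and 0.0579 without LP5. The neuron markers summed to 42.9 to 58.4 CPM in HP ovaries and 21.2 to 54.3 CPM in LP ovaries, and the sums overlapped. Of 4 tested loci, 0 had an unadjusted p under 0.05 in edgeR, against 8.24% of all tested loci. SYT1, a synaptic vesicle protein, made up most of each sum. Its main locus had 38.1, 53.5 and 31.4 CPM in HP1, HP2 and HP3, against 24.6, 39.4 and 17.6 CPM in LP4, LP5 and LP6. STMN2, a neuronal microtubule regulator, had a locus near 0 in most ovaries that reached 5.60 CPM in HP3 and 7.43 CPM in LP5. Another STMN2 locus had 0.430 CPM in HP3 and 0.535 CPM in LP5 and was highest in HP2 (1.28 CPM). The part of neurons in the TUBB3 values was not tested.

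Tubulin loci with high counts gave overlapping values in the groups. LOC102088017 (TUBA1A in RefSeq), joined with LOC102088204, had 556, 521 and 902 CPM in HP1, HP2 and HP3, against 735, 710 and 602 CPM in LP4, LP5 and LP6. LOC102084490 (TUBB4B in RefSeq) had 181, 236 and 224 CPM in HP1, HP2 and HP3, against 212, 166 and 220 CPM in LP4, LP5 and LP6. HP3 was the highest ovary at the first of these loci. Log2 fold changes at the 5 tubulin loci with the highest mean CPM ran from -0.15 (LOC102092546) to 0.10 (LOC102086223 and LOC102084490). LOC102092546 is joined with LOC102093027, and LOC102086223 with LOC110360806 (RABIF in RefSeq), so their counts are not those of a single gene. LOC102094322, an alpha-3 chain, was the highest of the class in fold change at 0.49 (unadjusted p of 0.0639 in edgeR, and 0.61 with an unadjusted p of 0.0482 without HP2), with 19.8, 12.6 and 12.8 CPM in HP1, HP2 and HP3 against 10.01, 10.8 and 11.3 CPM in LP4, LP5 and LP6. TUBB1, the platelet tubulin of mammals, had a log2 fold change of 0.28. Tubulin copies are similar in sequence, and 8 of the 15 tested overlap another locus.

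**Figure D4:**
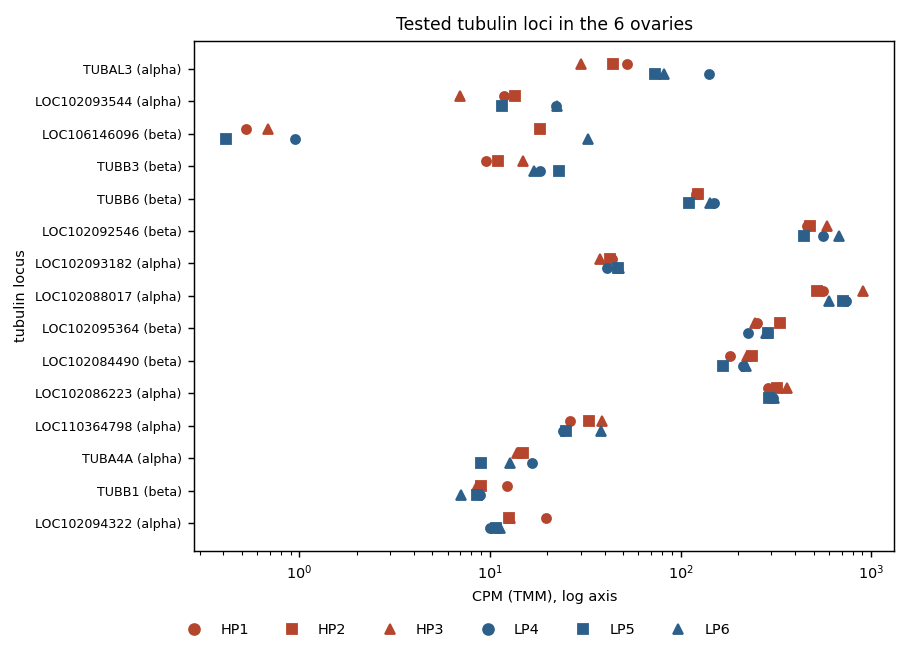
CPM (log axis) of the 15 tested tubulin loci in the 6 ovaries, HP in red above LP in blue within each locus, ordered from the lowest fold change (top) to the highest. TUBAL3 and TUBB3 have all LP ovaries to the right of all HP ovaries, and the other loci but LOC102094322 overlap.

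Of 21 tested trafficking loci, 1 was higher in HP ovaries with an unadjusted p under 0.05 in edgeR (4.76%, background 4.74%). Another 1 was lower (4.76%, background 3.5%). With 1 locus in each direction, these shares do not set the class apart from the background. WDFY1, an endosomal FYVE domain protein that aids Toll-like receptor signalling in mammals, was the locus higher in HP ovaries, with 393, 496 and 533 CPM in HP1, HP2 and HP3, against 381, 359 and 380 CPM in LP4, LP5 and LP6. HP1 exceeded LP4 only slightly, and HP2 and HP3 were well above. The log2 fold change was 0.34 (SE 0.14), with an unadjusted p of 0.0404 and an adjusted p of 0.595 in edgeR. Without HP2, HP3, LP4, LP5 or LP6 the unadjusted p lay between 0.0757 and 0.127, and without HP1 it was 0.00705. WDFY1 was filed under the same KEGG entry as HGS, WDFY2 and SLC25A10 (joined with LOC110363209), so the entry does not name it alone. Those loci had log2 fold changes of -0.14, 0.08 and 0.03.

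RAB7B, a small GTPase of late endosomes, had 10.6, 7.83 and 11.2 CPM in HP1, HP2 and HP3, against 20.1, 12.2 and 14.5 CPM in LP4, LP5 and LP6. The groups did not overlap, with HP3 just under LP5. RAB7B had a log2 fold change of -0.66 (SE 0.25), with an unadjusted p of 0.0349 and an adjusted p of 0.594 in edgeR, and the unadjusted p lay between 0.0559 and 0.116 without HP1, HP2, LP4 or LP6. RAB7A, the GTPase that directs fusion with lysosomes, had 378, 426 and 503 CPM in HP1, HP2 and HP3, against 421, 322 and 342 CPM in LP4, LP5 and LP6 (log2 fold change 0.27, unadjusted p of 0.132 in edgeR, and 0.39 with an unadjusted p of 0.0494 without LP4). The early endosome genes RAB5A, RAB5C and EEA1 had log2 fold changes of 0.18, 0.04 and 0.16, and RAB5B had -0.32 (-0.46 without HP3, unadjusted p of 0.043 in edgeR).

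**Figure D5:**
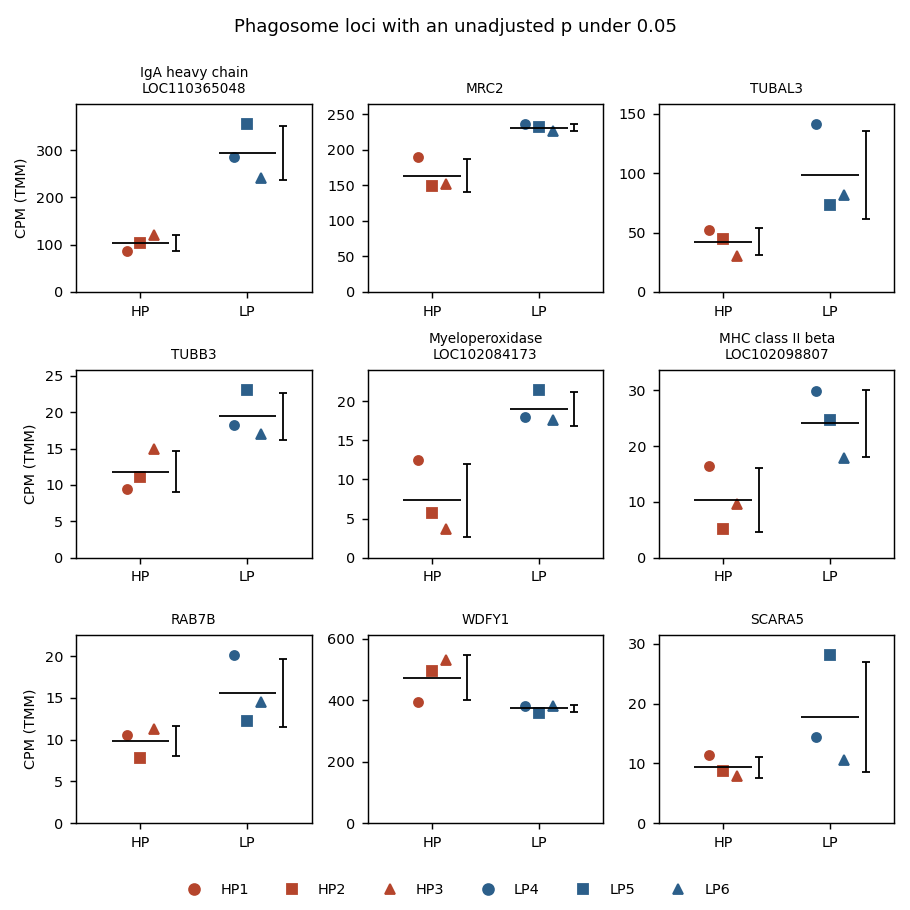
CPM in each ovary of the 9 phagosome loci with an unadjusted p under 0.05, with the group mean (bar) and SD (whisker), n = 3 each. In 8 panels HP and LP ovaries do not overlap, and in SCARA5 HP1 lies above LP6.

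No locus of the actin and dynein class (12 tested) or of the proton pump (13 tested) had an unadjusted p under 0.05, against 8.24% of all tested loci. Counts this small do not set either class apart from the background. ACTB, cytoplasmic beta-actin, had 4430, 3953 and 4426 CPM in HP1, HP2 and HP3, against 4678, 4794 and 4796 CPM in LP4, LP5 and LP6, without overlap but with a log2 fold change of only -0.16 (unadjusted p of 0.202 in edgeR). The dynein heavy chain DYNC1H1, the motor that carries phagosomes inward, had a log2 fold change of -0.05. Of 13 tested proton pump loci, 10 were above 0 (76.9%, against 49.0% of all tested loci), and the class median was 0.0 without LP5. The catalytic subunit ATP6V1A had 191, 241 and 242 CPM in HP1, HP2 and HP3, against 237, 182 and 226 CPM in LP4, LP5 and LP6, and ATP6V0E1 reached its highest value in HP2 (80.2 CPM), with the other ovaries between 22.7 and 43.7 CPM.

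Groups did not overlap at 14 of the 103 tested phagosome loci, which is 13.6% against 14.6% of all tested loci. HP was higher at 4 of them (background 7.38%) and lower at 10 (background 7.17%). The median ratio between the highest and the lowest ovary was 1.70, against 1.83 over all tested loci. At 6 loci the ratio was at least 10-fold (5.83%, against 3.95% of all tested loci). A locus with 0 counts in an ovary, such as LOC110361966, has no ratio and is not among the 6. The widest were LOC106146096, filed as a beta-tubulin, with 0.527, 18.4 and 0.688 CPM in HP1, HP2 and HP3 against 0.950, 0.414 and 32.6 CPM in LP4, LP5 and LP6, and LOC110356747, filed as an actin, where LP4 had 9.35 CPM and the other ovaries at most 2.15 CPM. Neither of these is described as a tubulin or an actin in the file.

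The 14 loci that were not tested comprised 8 receptors, 2 oxidases, 2 tubulins, 1 class II locus and 1 proton pump locus. None exceeded 2.32 CPM in any ovary. Several assignments are doubtful, since 18 of the 117 loci carry more than 1 gene name, and others, among them ASTN1 (astrotactin-1), FAM172A and LOC102088590 (shootin-1-like), are described as other proteins than their KEGG entry names.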

How the data were processed

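Total RNA of 6 ovaries was sequenced as paired ends after removal of ribosomal RNA. According to the methods and processing notes, the authors trimmed reads with cutadapt 1.9, checked them with FastQC 0.10.1, mapped them to Cliv_1.0 with HISAT2 2.0.4 (and Bowtie2), and assembled and quantified loci with StringTie 1.3.4 and Ballgown. The authors deposited raw counts and FPKM per locus, with KEGG, gene names and descriptions. Use of strand and of reads that map to several places is not given in the sources used here. The table held 0 columns of other samples.

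Counts were tested with edgeR 4.0.16 (quasi-likelihood, TMM) in R 4.3.3, HP against LP, with 3 ovaries per group and no covariate. Deposited FPKM served for the filter (mean at least 0.1, which left out 6072 loci) and for the 2-fold limit. CPM is not scaled to length, so the ranking by mean CPM only chose which loci to name and does not compare levels between genes. The values of 1 oxidase locus are not reported here, though it counts in the class totals. An exact permutation test of 3 against 3 cannot go below 0.1 and was not used. The fit was also run on simulated data as a check of the code. Those data had a lower biological coefficient of variation than the ovaries, and large changes set only at loci with high counts. They therefore do not show what could be detected here.

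The pathway members, classes and marker lists were chosen with earlier results of these data known. Genes are named by a rule: every member with an unadjusted p under 0.05, the 5 tested loci with the highest mean CPM in the MHC, receptor, oxidase and tubulin classes, the highest and lowest fold change of each, and listed phagocyte genes; others were chosen after their values were seen. Classes follow the KEGG orthology entry. Of 65 LOC names among members, 37 matched RefSeq (bColLiv1.pat.W.v2), and 6 had another symbol there. Marker lists covered leukocytes, T cells, B cells, granulocytes, erythrocytes, granulosa, theca, oocyte, neuron, ciliated epithelium, endothelium and smooth muscle. Alternatives were DESeq2 1.42.0, RLE size factors, no filter, a mean FPKM of at least 1, limma 3.58.1 on log2(FPKM + 1) and log2(FPKM + 0.1), leaving out each ovary, and members that overlap no other locus.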

Additional observations from a re-analysis of the deposited data

How the results depend on the processing

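The number of phagosome loci with an adjusted p under 0.05 was 0 in edgeR and 2 in DESeq2 (LOC110365048 and TUBAL3), which called 407 of all tested loci (1.44%), and 0 under every other alternative. The number with an unadjusted p under 0.05 was 9, and 13 in DESeq2 (10.2% of all loci), 9 with RLE size factors (8.29%), 10 without a filter (7.52%), 9 at a mean FPKM of at least 1 (8.9%), 9 in each limma fit (8.56% and 8.63%) and 6 of the 55 that overlap no other locus (8.55% of all such loci). When each ovary was left out it ranged from 6 (without HP2, 5.2% of all loci) to 15 (without HP1, 9.12%). The number that also differed 2-fold was 4 and ranged from 2 (without HP2, 2.49% of all loci, or without HP3, 3.7%) to 6 (without LP6, 3.37%). LOC110365048, MRC2 and TUBAL3 kept an unadjusted p under 0.05 in all 12 alternatives tried on single loci. No named locus with an unadjusted p under 0.05 changed sign. No paired analysis was made, because the HP and LP ovaries came from different birds and no matching between them is described. With 3 birds a group and a biological coefficient of variation of 0.423, the size of difference that could be detected was limited.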

Other observations

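Other cell types of the ovary differed between birds. Smooth muscle markers summed to 752, 442 and 816 CPM in HP1, HP2 and HP3, against 1479, 2552 and 500 CPM in LP4, LP5 and LP6. Of 4 tested loci, 1 had an unadjusted p under 0.05 in the edgeR fit, lower in HP ovaries (background 3.5%). All 4 smooth muscle loci were below 0 (median -0.98). Markers of ciliated epithelium summed to 115 to 152 CPM in HP ovaries and 85.3 to 96.8 CPM in LP ovaries. All 4 of these loci were above 0 (against 49.0% of all tested loci), and 1 had an unadjusted p under 0.05 in edgeR (background 4.74%). Endothelial markers summed to 142 to 177 CPM in HP ovaries and 157 to 228 CPM in LP ovaries. All 3 endothelial loci were below 0 (median -0.31). T cell markers summed to 9.47 to 11.7 CPM in HP ovaries and 8.86 to 9.09 CPM in LP ovaries. Of the 4 T cell markers 2 were above 0 and 2 below: CD3D had a log2 fold change of 0.53 (unadjusted p = 0.0281 in edgeR) and CD3E -0.50 (unadjusted p = 0.0656 in edgeR). Granulosa markers summed to 480 to 1002 CPM in HP ovaries, with the lowest value in HP1, and 732 to 906 CPM in LP ovaries, and oocyte markers to 249 to 383 CPM in HP ovaries and 242 to 333 CPM in LP ovaries. The theca list was found at 1 of 4 symbols (6.02 to 10.6 CPM in HP ovaries, 6.61 to 14.5 CPM in LP ovaries) and the erythrocyte list at 0 of 4. Their part in the phagosome values was not tested.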
